A study of Mus musculus with 6 samples.

Results

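N6-methyladenosine (m6A) is the most common internal mark of messenger RNA, and the 10 genes described here encode proteins that write or read it. In the methyltransferase complex, Mettl3 is the catalytic subunit, Mettl14 its structural partner that helps hold the RNA, Wtap the regulatory subunit that gathers the complex in nuclear speckles, and Zc3h13 and Cbll1 (also called Hakai) further regulatory subunits. Rbm15 and Rbm15b are RNA-binding paralogs that bring the complex to its targets, among them Xist, the long noncoding RNA that silences one X chromosome in female cells. Readers of the YTH family bind the mark: Ythdc1 in the nucleus, Ythdf2 and Ythdf3 mainly in the cytosol, where Ythdf2 is known for speeding decay of marked transcripts. The genes were taken by symbol from the deposited table, which held 23281 genes, and all 10 were found once each (7 writer subunits and 3 readers).

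The table came from time-lapse SLAM-seq of nuclear RNA, made from mouse embryonic stem (ES) cells that were female and 129S x Cast hybrids. In all cultures the endogenous Xist promoter had been replaced on the 129S allele by a doxycycline-driven (TetOn) one, and Bgl stem-loops had been added at the Xist 3' end. Xist was switched on in every culture with doxycycline at 1 µg/ml (17.5 to 20 h), and RNA was then labelled for 4 h with the uridine analogue 4sU at 500 µM, still under doxycycline. The label was washed out for 0, 30, 60, 90, 120 or 150 min in medium that held doxycycline and 50 mM uridine, and each time gave 1 library; the cultures at 0 min were not washed. Alkylated 4sU is read as C in place of T, and the labelled share of reads is derived from the T>C conversion rate. Both fall as labelled RNA leaves the nucleus, and also as new unlabelled RNA is added. A fall in share does not by itself tell these apart, and decay and export cannot be told apart.

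Libraries held 18558073 to 28535162 reads. No time was replicated, and p-values of the slope fits measure the scatter of 6 libraries around a line in time. That scatter was moderated with the variances of all genes tested. These genes come from the same 6 libraries, so a deviation of a library that they share is not independent between them. All 8 stem cell markers were detected, with a summed level of 2609 to 3026 CPM (counts scaled to library size). The 10 fibroblast feeder markers summed to 468 to 680 CPM, with Lum at 0 to 0.18 CPM, Col1a1 at 76.0 to 120.8 CPM and S100a4 at 146 to 216 CPM, and their part in the results was not tested. The library read as 60 min had a higher T>C rate over all genes (4.11%) than the library read as 30 min (2.69%) and about that at 0 min (4.05%). The T>C rate was higher at 60 than at 30 min in 10 of 10 m6A genes and in 94.2% of all genes tested. The times rest on column names, and whether these 2 libraries were exchanged cannot be told from the labels, so each value given for 30 or 60 min carries that limit. With the 2 times exchanged, 10 of 10 m6A genes fell on the share (54.5% of all genes did; member rates 0.265 to 0.870 per h) and on the T>C rate (87.9% did), and the same 4 of the 6 gene pairs compared further on passed.

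Start regions of 3 of the genes are shown. They belong to the fastest (Cbll1) and the slowest (Zc3h13) of the 10 genes and to the catalytic subunit (Mettl3). Each runs 5′ to 3′ over 250 bases before and 50 after a RefSeq start (GRCm38.p6), at chr12:31499567-31499866 on the minus strand for Cbll1, chr14:52305075-52305374 on the minus strand for Mettl3 and chr14:75284116-75284415 on the plus strand for Zc3h13. Capitals mark the GC box GGGCGG and the ETS factor motif CCGGAAG, each on either strand, where GC boxes may overlap one another.
Cbll1: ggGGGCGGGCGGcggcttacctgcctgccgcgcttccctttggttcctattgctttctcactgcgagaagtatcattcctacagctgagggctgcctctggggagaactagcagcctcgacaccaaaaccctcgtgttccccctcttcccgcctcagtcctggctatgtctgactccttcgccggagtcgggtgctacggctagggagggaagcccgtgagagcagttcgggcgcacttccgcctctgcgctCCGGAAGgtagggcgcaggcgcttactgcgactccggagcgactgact
Mettl3: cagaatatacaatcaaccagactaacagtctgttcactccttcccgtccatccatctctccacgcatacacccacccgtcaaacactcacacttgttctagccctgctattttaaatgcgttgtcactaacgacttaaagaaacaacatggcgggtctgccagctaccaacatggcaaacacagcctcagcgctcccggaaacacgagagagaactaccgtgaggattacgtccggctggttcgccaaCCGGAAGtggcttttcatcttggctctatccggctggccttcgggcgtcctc
Zc3h13: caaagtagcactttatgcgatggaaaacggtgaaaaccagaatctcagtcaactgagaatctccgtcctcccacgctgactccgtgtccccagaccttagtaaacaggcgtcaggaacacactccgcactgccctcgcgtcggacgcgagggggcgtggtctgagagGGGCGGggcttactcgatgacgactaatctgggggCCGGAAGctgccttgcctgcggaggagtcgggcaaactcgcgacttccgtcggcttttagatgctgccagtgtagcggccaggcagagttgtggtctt
RefSeq start regions were matched for 8 of the 10 genes, in 11 windows. Genes were counted where any of their windows held a motif, while the percentages are of single windows, which is an unlike measure. A GC box stood in 7 of the 8 genes (in 35.7% of all 32851 windows), and Mettl3 had none. The ETS motif was found in Cbll1, Mettl3 and Zc3h13 (8.86% of all windows), and CCAAT in Rbm15 and Wtap (37.4%). The TATA box TATAAA was in 0 of 8 (13.6%). Member windows had a median of 32 CpG dinucleotides, against 7 in all windows. Wtap and Zc3h13 had overlapping windows that were each counted, and the set of all windows was not limited to genes detected here. These matches are descriptions of letters, and the windows of the fastest and the slowest gene held the same pair of motifs.

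The genes lie on 7 chromosomes of mm10, with no member on the X. Mettl3 (ENSMUSG00000022160) lies on chromosome 14 at 52294841 to 52305128 and Zc3h13 (ENSMUSG00000022000) on the same chromosome at 75284373 to 75344426. Mettl14 (ENSMUSG00000028114; 123368297 to 123386108), Rbm15 (ENSMUSG00000048109; 107325421 to 107333673) and Ythdf3 (ENSMUSG00000047213; 16183212 to 16217037) are on chromosome 3. Wtap (ENSMUSG00000060475) is on chromosome 17 at 12966796 to 12994169, Cbll1 (ENSMUSG00000020659) on chromosome 12 at 31484829 to 31499616 and Rbm15b (ENSMUSG00000074102) on chromosome 9 at 106880918 to 106887428. Ythdc1 (ENSMUSG00000035851) is on chromosome 5 at 86804221 to 86836659 and Ythdf2 (ENSMUSG00000040025) on chromosome 4 at 132184912 to 132212303. Exons of Mettl3 overlap Tox4 on the opposite strand, those of Rbm15b overlap Dcaf1 on the opposite and Manf on the same strand, those of Ythdc1 overlap the noncoding Gm43055 on the same strand, and those of Cbll1 overlap the antisense Gm29542, which was not analysed here. Whether reads were assigned by strand is not stated by the labels or headers, and reads of these 4 genes and their neighbours may be mixed.

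All 10 genes were well covered, with 421 to 4734 reads per library, and each had more than the 100 mean reads required for testing. Per length (reads per kb of deposited gene length, scaled to the same sum in each library as in TPM), Wtap had the highest mean level (99.4, with 69.9 to 123 over the libraries), followed by Ythdf2 (89.5), Ythdf3 (76.3), Ythdc1 (74.5) and Rbm15 (73.0). Zc3h13 had 62.0, Rbm15b 48.1 and the catalytic Mettl3 48.1. Cbll1 (15.3) and Mettl14 (12.7, with 8.20 to 16.7 over the libraries) were lowest and their ranges overlapped. The catalytic subunit thus had a higher level per length than its partner Mettl14 in every library, with 41.1 to 54.5 for Mettl3 and 8.20 to 16.7 for Mettl14. This gap rests on the deposited lengths, 2159 nt for Mettl3 and 7197 nt for Mettl14. Their mean reads were 903 and 778, and at 150 min Mettl14 had more reads (800 against 755). Mettl3 reads may also be mixed with those of Tox4. The median over the 10 genes was 67.5, against 28.7 over all genes tested.

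The labelled share fell over the washout in each of the 10 genes. By limma on the natural log of the labelled share, 10 of 10 fell at a Benjamini-Hochberg adjusted p under 0.05 and 0 rose, where 52.3% of 11462 genes fell and 1.19% rose. Their median rate of label loss was 0.585 per h, against 0.247 per h over all genes tested, and 10 of 10 lay above that median and 6 above the upper quartile of all genes (0.493 per h). The genes began with more label, with a median share of 79.2% at 0 min against 46.8% over all genes, and 10 of 10 were above the median of all genes. At 150 min their median share was 16.3% against 21.1%, and 7 of 10 were below. Ordered by half-life (ln 2 over the rate), Cbll1, Rbm15, Ythdf2 and Wtap (49.6 to 55.1 min) came first, then Ythdc1, Mettl14 and Rbm15b (68.7 to 86.1 min), then Ythdf3, Mettl3 and Zc3h13 (95.5 to 147 min). Between neighbours in this order the rates differed by more than the larger SE only from Wtap to Ythdc1 and from Mettl3 to Zc3h13. The order depended on how libraries were weighted. With weights from the posterior, Cbll1 (0.474 per h) and Ythdc1 (0.471) came first, then Mettl14 (0.444), Wtap (0.431) and Rbm15 (0.428), while Ythdf2 (0.291) lay below Mettl3 (0.352) and Rbm15b (0.334), and Zc3h13 (0.202) stayed last. On those weights 7 of 10 genes fell, where 25.7% of all genes did.

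**Figure D1:**
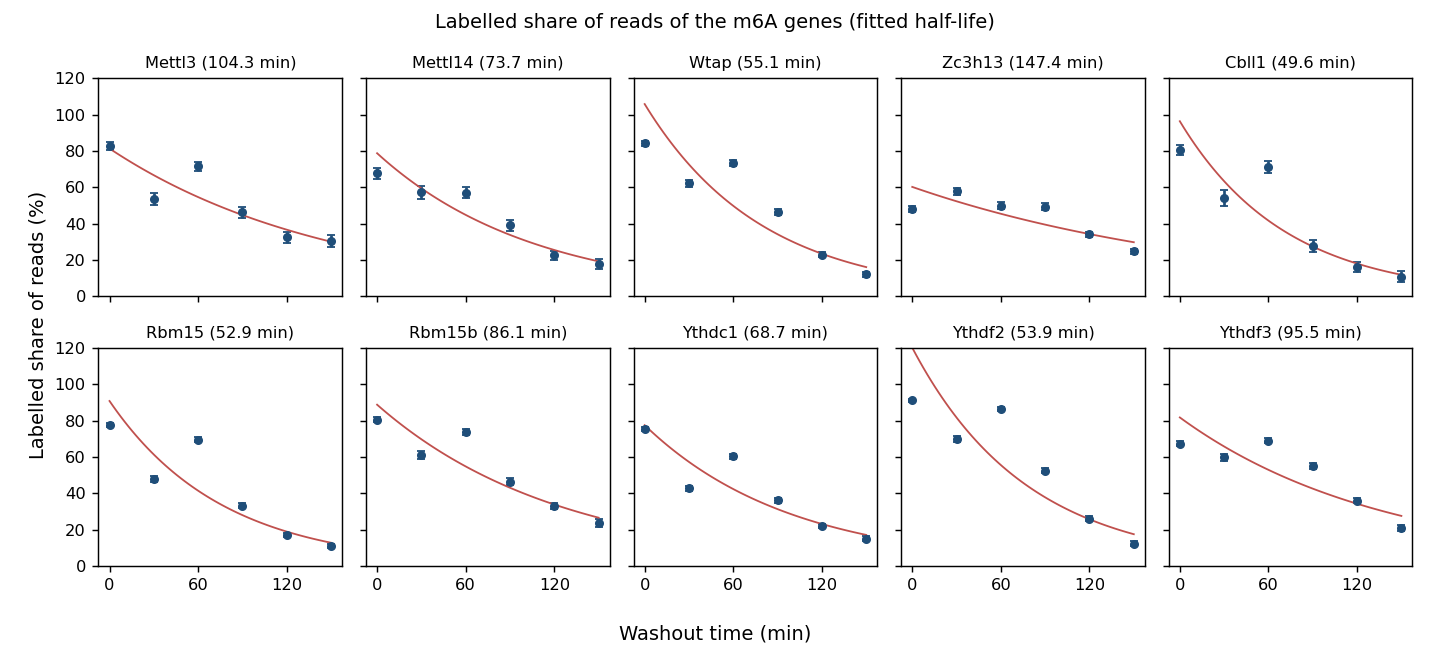
Labelled share of reads (%) against washout time (min) for each of the 10 genes; points are the deposited posterior means, bars the 5% to 95% posterior range within a library, and curves the fitted exponential loss with its half-life in the panel title. In 8 of 10 panels the 60 min point lies above the 30 min point, and the Zc3h13 panel stays between 48.1% and 57.9% until 90 min.

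Of the catalytic heterodimer, Mettl3 lost label faster than 66.7% and Mettl14 faster than 80.5% of genes tested. Mettl3 had a labelled share of 83.0, 53.8, 71.7, 46.2, 32.5 and 30.4% at 0, 30, 60, 90, 120 and 150 min. It kept the most label of the 10 genes at 150 min, and its half-life was 104 min (84.0 to 138 at 1 SE to either side; limma adjusted p = 0.00248). Mettl14 had 67.8, 57.3, 57.1, 39.2, 22.5 and 17.8% at the same times. Its share was level between 30 and 60 min, and its half-life was 73.7 min (63.0 to 88.7; limma adjusted p = 0.000172).

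Among the regulatory subunits in the list of 10 genes, label loss was steepest for Cbll1 and Wtap and slowest for Zc3h13. Wtap had 84.3, 62.1, 73.4, 46.6, 22.9 and 12% labelled at 0, 30, 60, 90, 120 and 150 min, a half-life of 55.1 min (47.8 to 65.1; limma adjusted p = 8.86e-05). Cbll1 had 80.6, 54.2, 71.4, 27.5, 16.2 and 10.7%, a half-life of 49.6 min (43.7 to 57.3; limma adjusted p = 5.15e-05), faster than 94.7% of genes tested. Both were lowest at 150 min, with Wtap 7.03-fold and Cbll1 7.55-fold lower than at 0 min. Zc3h13 had 48.1, 57.9, 50.0, 49.4, 34.1 and 24.7%, so that its share at 0 min was the lowest of the 10 genes and it fell below that value only from 120 min on. Its half-life was 147 min (110 to 226; limma adjusted p = 0.0232), and at 150 min its share was 1.95-fold and its T>C rate 4.32-fold lower than at 0 min. This call was lost without the library at 30 min (limma adjusted p = 0.0794), at 120 min (0.0621) or at 150 min (0.331, with 0.169 in place of 0.282 per h), and without both the 30 and 60 min libraries (0.0755).

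On the unweighted fit the adaptor paralogs differed. With weights from the posterior their rates lay closer, at 0.428 per h for Rbm15 and 0.334 per h for Rbm15b. Rbm15 had 77.8, 47.8, 69.6, 33.1, 16.8 and 10.8% labelled in time order, a half-life of 52.9 min (46.1 to 62.1; limma adjusted p = 7.52e-05). Rbm15b had 80.6, 61.1, 73.7, 46.3, 33.0 and 23.6%, a half-life of 86.1 min (71.8 to 107; limma adjusted p = 0.000584). The paralogs began within 3 percentage points of each other, and Rbm15 was below Rbm15b in every library.

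Of the readers, the cytosolic Ythdf2 was the most heavily labelled of the 10 genes at 0 min and fell steeply. Ythdf2 had 91.2, 70.0, 86.3, 52.5, 26.1 and 12.2% in time order, a half-life of 53.9 min (46.5 to 64.0; limma adjusted p = 0.000114). Its paralog Ythdf3 had 67.3, 59.7, 69.0, 55.0, 35.9 and 20.8%, a half-life of 95.5 min (76.9 to 126; limma adjusted p = 0.00254). Ythdf3 stayed at or above 55.0% to 90 min and was lower after that. The nuclear reader Ythdc1 had 75.3, 42.8, 60.3, 36.1, 22.1 and 14.9%, a half-life of 68.7 min (58.5 to 83.0; limma adjusted p = 0.000202). Ythdf3 missed the threshold without the 150 min library (0.268 in place of 0.436 per h; limma adjusted p = 0.114). With libraries weighted by the posterior the rates of Wtap, Cbll1, Rbm15, Ythdf2 and Ythdf3 (0.249 per h) were lower by over 1.5 times, and Zc3h13 (limma adjusted p = 0.124), Ythdf2 (0.105) and Ythdf3 (0.0881) missed the threshold.

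**Figure D2:**
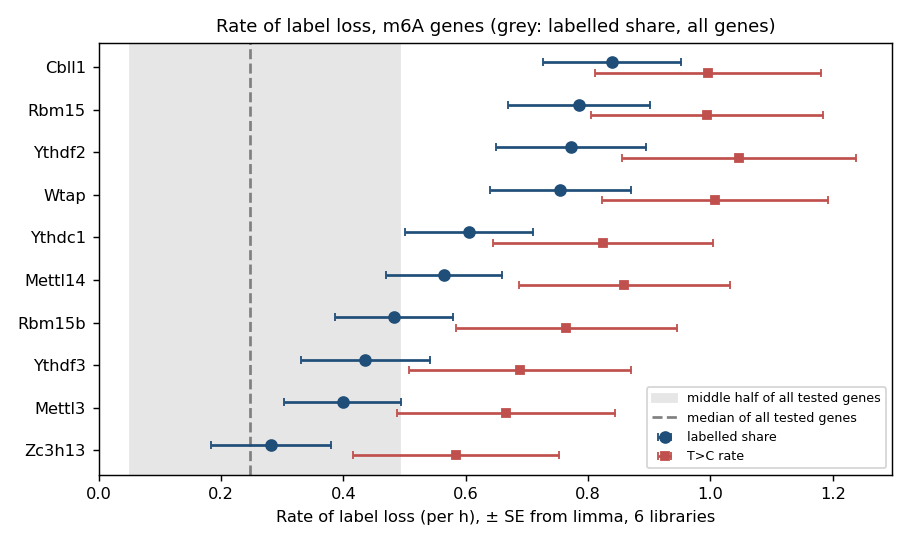
Rate of label loss (per h) of the 10 genes, ordered with the fastest at the top; circles are rates from the labelled share and squares from the T>C rate, bars are SE from limma over 6 libraries, and grey marks the interquartile range and median (0.247 per h) of all genes for the labelled share. All 10 circles lie right of that median, from 0.282 per h for Zc3h13 to 0.839 per h for Cbll1.

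A straight line in the log of the share described the losses only in part. Every one of the 10 genes lost label faster per hour between 90 and 150 min than between 0 and 90 min, with medians of 0.915 and 0.381 per h, and 93.8% of all genes tested did so. Ythdf2 lost 1.46 per h after 90 min and 0.368 per h before it. Wtap lost 1.36 per h after and 0.396 per h before, and Ythdf3 0.971 per h after and 0.135 per h before. Mettl3 was the most even, with 0.417 per h after and 0.391 per h before. For 2 genes the fitted line exceeded a share of 100% at 0 min.

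Pairs of partners and paralogs were compared as ratios within each library, so that a deviation shared by both genes cancels. A deviation that differs between the genes stays in the ratio. Of 6 pairs, 4 passed a two-sided exact permutation test over the 720 orderings of the times, whose smallest possible p is 0.00278. The pairs were chosen with earlier results of these data known, and the adjustment covers only these 6, which limits what a pass means. Ythdf2 lost label faster than Ythdf3, with a ratio of shares of 1.35, 1.17, 1.25, 0.955, 0.726 and 0.586 in time order and a rate difference of 0.337 ± 0.055 per h (SE, 6 libraries; exact permutation p = 0.00556, adjusted p = 0.0278 over 6 pairs). Ythdf2 was thus the more labelled paralog up to 60 min and the less labelled one from 90 min on. Rbm15 lost label faster than Rbm15b by 0.303 ± 0.070 per h (exact permutation p = 0.0194, adjusted p = 0.0292), and the ratio was 0.457 at 150 min and 0.964 at 0 min.

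Cbll1 lost label faster than Mettl3 by 0.440 ± 0.086 per h (exact permutation p = 0.0139, adjusted p = 0.0278). Their ratio was 0.971, 1.01 and 0.995 at 0, 30 and 60 min and 0.595, 0.500 and 0.351 at 90, 120 and 150 min, so the genes separated only after 60 min. Zc3h13 lost label more slowly than Wtap, with a rate difference of -0.472 ± 0.099 per h (exact permutation p = 0.0139, adjusted p = 0.0278). The ratio was 0.570, 0.931, 0.681, 1.06, 1.49 and 2.06 in time order, so the deviation at 30 and 60 min did not cancel in this pair. Between Mettl3 and Mettl14 the difference of -0.166 ± 0.069 per h did not pass (exact permutation p = 0.0694, adjusted p = 0.0833). Between Ythdc1 and Ythdf2 it was -0.166 ± 0.100 per h and did not pass (exact permutation p = 0.169, adjusted p = 0.169). Leaving out any 1 library other than the one at 60 min took each of the 4 pairs to an exact permutation adjusted p of 0.05 to 0.125, which no longer passed, with the direction kept. With weights from the posterior the rates of the genes lay closer in all 4 pairs, also with the direction kept. They were 0.428 and 0.334 per h for Rbm15 and Rbm15b, and 0.291 and 0.249 per h for Ythdf2 and Ythdf3. The pair test was not run with weights.

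**Figure D3:**
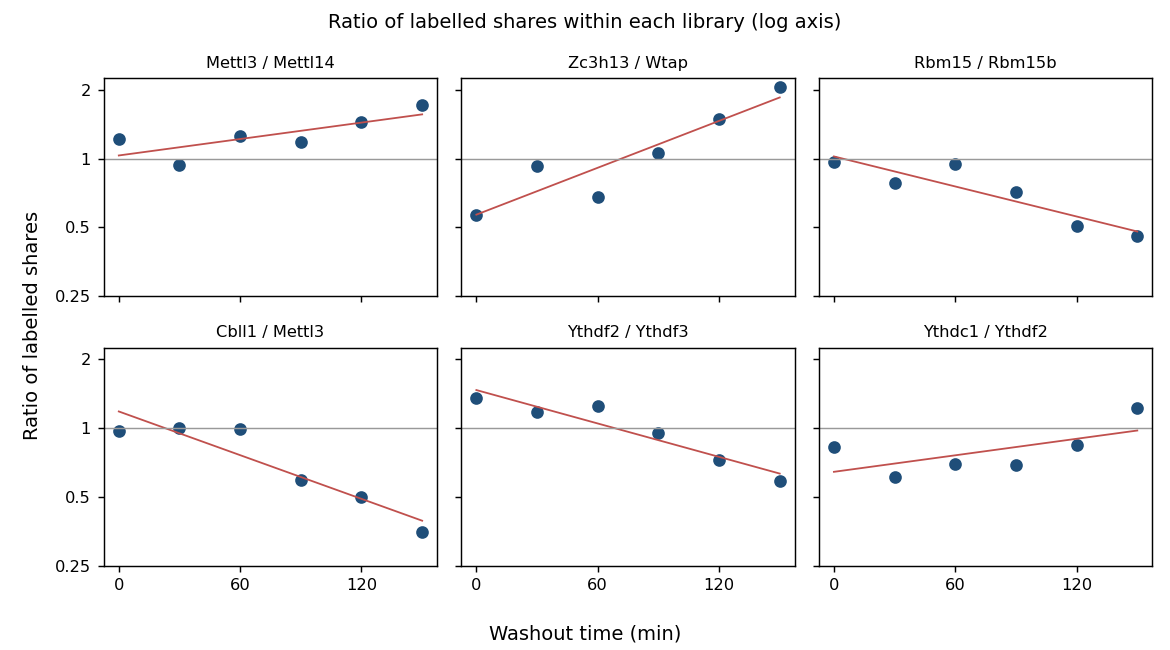
Ratio of labelled shares within each library (log axis) against washout time (min) for 6 pairs of partners or paralogs; points are single libraries, red lines the fitted slope and grey lines a ratio of 1. The Ythdf2 to Ythdf3 ratio crosses 1 between 60 min (1.25) and 90 min (0.955), and the Zc3h13 to Wtap ratio between 60 min (0.681) and 90 min (1.06).

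The raw T>C conversion rate does not use the authors' estimate of the labelled share, but both rest on the same conversions. A like direction is therefore not independent support, and the rate includes sequencing error and background conversions. The direction of the raw T>C rate was the same as that of the share for every member. By limma on its natural log 10 of 10 fell and 0 rose, where 66.9% of 11459 genes fell and 0% rose, with a median rate of 0.841 per h against 0.512 per h over all genes. Ythdf2 had 10.2% (95% Clopper-Pearson interval 9.95 to 10.4), 4.87, 11.03, 3.53, 1.44 and 0.679% (0.611 to 0.753) in time order. That was the highest T>C rate of the 10 genes at 0, 30 and 60 min, and the fitted half-life was 39.7 min (limma adjusted p = 0.000206). Cbll1 had 8.42% (7.96 to 8.89), 3.34, 7.43, 2.20, 0.912 and 0.716% (0.570 to 0.888), and its half-life by this measure was 41.8 min (limma adjusted p = 0.000219). These intervals cover counting error only. Wtap (41.3 min) and Rbm15 (41.8 min) were alike in half-life, and the slow end again held Mettl3 (62.5 min; 8.49, 3.68, 8.15, 3.60, 1.80 and 1.49%) and Zc3h13 (71.2 min; 5.26, 4.12, 5.83, 3.53, 1.85 and 1.22%). Mettl3 kept the highest T>C rate at 150 min.

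The T>C rate at 60 min was above that at 0 min in 4 of the 10 genes (Rbm15b, Ythdf2, Ythdf3 and Zc3h13), and in 62.2% of all genes tested. The labelled share, by contrast, was higher at 60 than at 30 min in 8 of the 10 genes, all but Mettl14 and Zc3h13, and in 47.1% of all genes tested. Without the 150 min library the T>C slopes of Mettl3 (limma adjusted p = 0.0611), Ythdf3 (0.130) and Zc3h13 (0.162) missed the threshold.

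**Figure D4:**
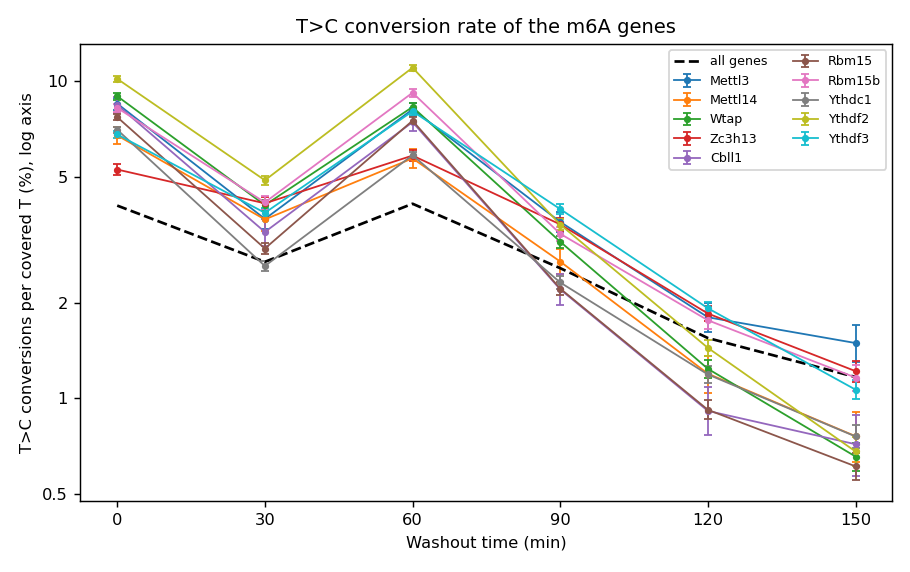
T>C conversions per covered T (%, log axis) against washout time (min); each coloured line is 1 of the 10 genes with 95% Clopper-Pearson intervals, and the dashed line is the rate over all genes. All genes dip at 30 min and rise at 60 min, as does the dashed line (2.69% and 4.11%), and at 150 min they spread between Rbm15 (0.61%) and Mettl3 (1.49%).

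Total reads of the 10 genes were compared because a half-life from a share takes the level as constant, and scaled reads show a gene only relative to its library. In bulk RNA, fewer cells with a transcript and less of it per cell cannot be told apart. By edgeR on the counts 0 of 10 genes passed (0% of 15743 genes did), although 4 had an unadjusted p under 0.05, all with positive slopes, where 21.7% of all genes tested had one. DESeq2 called 1 of the 10, where it called 605 genes (4.53%). Zc3h13 had 112, 128, 94.0, 142, 180 and 192 CPM in time order, and its slope was 0.34 ± 0.087 log2 per h (edgeR adjusted p = 0.102). Its level was lowest at 60 min and highest at 150 min, and Zc3h13 was the member that DESeq2 called (adjusted p = 0.0167). Mettl14 had 25.8, 32.6, 23.4, 39.8, 37.6 and 43.4 CPM, with a slope of 0.29 ± 0.089 log2 per h (edgeR adjusted p = 0.123). Wtap had 94.2, 115, 88.4, 135, 131 and 142 CPM (0.23 ± 0.079 log2 per h; edgeR adjusted p = 0.14), and Ythdf3 had 0.16 ± 0.074 log2 per h (edgeR adjusted p = 0.223).

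The other genes had flatter levels. Rbm15 lay between 150 and 173 CPM (edgeR adjusted p = 0.994), Rbm15b between 112 and 121 CPM (0.98), Ythdc1 between 164 and 203 CPM (0.815) and Ythdf2 between 123 and 154 CPM (0.718). Mettl3 lay between 34.0 and 43.5 CPM (0.429) and Cbll1 between 19.7 and 25.3 CPM (0.25). The count of called members varied with the setting. Without the library at 60 min edgeR called 3, Mettl14 (adjusted p = 0.0223), Wtap (0.0313) and Zc3h13 (0.00931), where it called 9.19% of all genes. With the 30 and 60 min times exchanged edgeR called those 3 and Ythdf3 (adjusted p = 0.0397), where it called 18.3% of all genes, and with no filter on low counts it called 1, Zc3h13 (0.0358), and 1.71% of all genes.

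Splitting each gene's CPM by its labelled share gave a labelled and an unlabelled pool. At 150 min against 0 min, labelled CPM was lower in 10 of 10 genes and unlabelled CPM higher in 10 of 10, as in 88.0% and 71.3% of all genes tested. For Ythdf2 the labelled pool was 16.6 CPM at 150 min and 112 CPM at 0 min, and the unlabelled pool 119 CPM at 150 min and 10.9 CPM at 0 min, at nearly constant total. For Rbm15 the labelled pool was 18.0 CPM at 150 min and 125 CPM at 0 min. Zc3h13 differed, since its labelled pool was 53.7, 73.9, 47.0, 70.2, 61.2 and 47.4 CPM in time order while its unlabelled pool was 145 CPM at 150 min and 58.0 CPM at 0 min. With labelled CPM in place of the share, the Zc3h13 rate was 0.045 per h and did not pass (limma adjusted p = 0.747). The Mettl14 rate was 0.361 in place of 0.564 per h and still passed (limma adjusted p = 0.00873), and 9 of 10 genes fell on that measure, where 47.2% of all genes did.

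**Figure D5:**
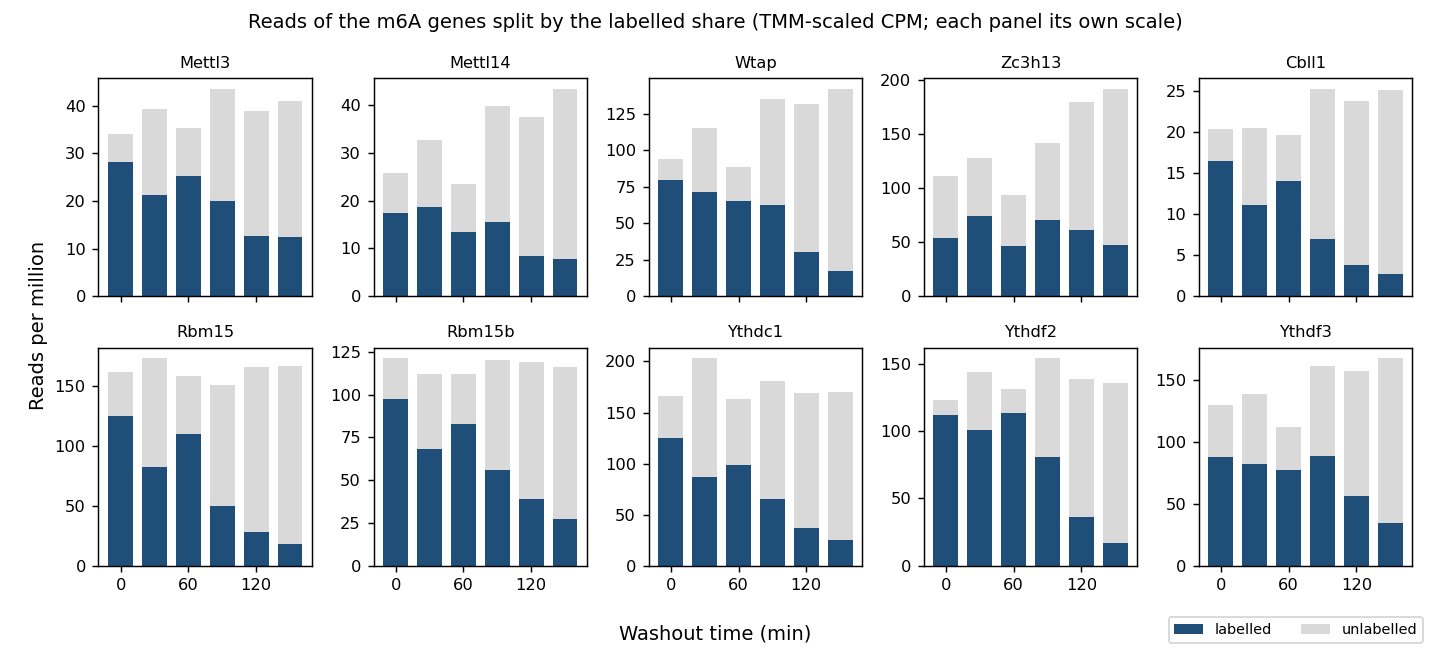
TMM-scaled CPM of the 10 genes by washout time (min), split by the labelled share into labelled (dark) and unlabelled (light) parts, each panel on its own scale. The dark part shrinks in most panels, to 16.6 CPM for Ythdf2 at 150 min, while that of Zc3h13 is 47.4 CPM at 150 min and 53.7 CPM at 0 min.

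Label taken up before the washout gave a second estimate of turnover, the half-life that yields the share at 0 min after 240 min of labelling at steady state. It was 68.5 min for Ythdf2, 89.8 min for Wtap, 93.8 min for Mettl3, and 101.3 min for both Cbll1 and Rbm15b. Rbm15 had 111 min, Ythdc1 119 min, Mettl14 147 min, Ythdf3 149 min and Zc3h13 254 min. The median was 106 min from uptake and 71.2 min from the washout, and Mettl3 was the only one of the 10 whose uptake estimate was the shorter, by a ratio of 0.899. Cbll1 and Rbm15 had uptake estimates 2.04 and 2.09 times those from the washout. Both estimates use the library at 0 min and carry no test here.

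Transcript sequence differed among the genes. In the longest coding transcript of each, T made up 18.7% of bases in Zc3h13 and 32.1% in Mettl14, against a median of 24.5% over 11301 coding genes. A conversion can be read only at a T, and Zc3h13 had 15.6 covered T per read, the fewest of the 10, against 24.4 in Cbll1; the part of this in the results was not tested. The m6A consensus core GGACT, searched on the transcript strand, occurred 1 to 7 times in each (92.7% of genes had at least 1), with 7 in Zc3h13, 6 in Wtap and Rbm15b, 4 in Mettl3 and 1 in Ythdf3. Per kb the median was 1.03 against 1.04 over all these genes, and 5 of 10 lay above.

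Of 21 other m6A pathway genes, 11 fell (52.4%, beside 52.3% of all genes) and 0 rose by limma on the labelled share, and 15 fell on the T>C rate (71.4%, beside 66.9% of all genes). Their median rate was 0.217 per h. The fastest were Rbmx, a nuclear RNA-binding protein whose binding sites m6A can open (39.3 min), Zcchc4, which methylates ribosomal RNA (60.2 min), the cytosolic reader Ythdf1 (67.7 min), the demethylase Alkbh5 (76.0 min) and Hnrnpa2b1 (77.7 min). The helicase reader Ythdc2 (98.1 min), the cap methyltransferase Pcif1 (104.7 min), Mettl16, which methylates a spliceosomal RNA (105.3 min), and Mettl4 (139 min) were slower, with Eif3a (174 min) and Elavl1 (193 min) nearest the threshold (limma adjusted p = 0.0415 and 0.0486). Ythdf1 had 18.4% labelled at 150 min and 86.3% at 0 min and so lay between its paralogs Ythdf2 and Ythdf3 in half-life.

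Virma, the large scaffold subunit of the same writer complex, had 22.3% labelled at 150 min and 33.2% at 0 min, and its rate of 0.164 ± 0.094 per h did not pass (limma adjusted p = 0.158). The demethylase Fto had 0.204 ± 0.087 per h (limma adjusted p = 0.0591). The ribosomal RNA methyltransferase Mettl5 and its partner Trmt112 had 0.114 and 0.085 per h, the m6A-binding Igf2bp1, Igf2bp2 and Igf2bp3 had 0.217, 0.024 and 0.007 per h, and Hnrnpc, Fmr1 and Prrc2a had 0.088, 0.106 and 0.151 per h, none of which passed. On the T>C rate, 4 of these genes fell, namely Virma (limma adjusted p = 0.0334), Fto (0.0316), Igf2bp1 (0.0155) and Prrc2a (0.0335).

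Other genes were ranked by likeness where their mean reads reached 500 (7512 genes). Those closest to Mettl3 by root mean square difference in ln share over the 6 libraries were Arhgef4 (0.0532; half-life 106 min), Evpl (0.0539; 99.4 min) and Prdm14 (0.0638; 106 min). The closest to Ythdc1 were Tma16 (0.0387; 71.3 min), Rbm25 (0.0634; 64.3 min) and Zfp280d (0.0637; 66.1 min).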

How the data were processed

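Nuclear RNA of 6 cultures was sequenced as stranded total RNA libraries with paired ends of 81 nt. The aligner and genome build, from the submitters' processing notes, were STAR 2.5.2b and mm10. What program made the deposited table is not stated there. The authors deposited, per the file headers, read counts per gene (not normalized), counts of T>C conversions and covered T, and the labelled fraction as a posterior mean, mode and 5% and 95% quantiles. The authors' posterior parameters (a score) their double conversion counts and a column without a stated meaning are not reported. The deposited conversion counts carry 4 significant digits. Column names were matched to times as the sample titles without their shared ending, so columns named with no number were read as 0 min. Gene length was given by the deposited table. Gene IDs were matched to GENCODE M21 (23223 of 23281).

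Slopes on time were fitted with limma 3.58.1 on ln fraction and ln T>C rate (mean of at least 100 reads, values above 0 in every library) and with edgeR 4.0.16 (quasi-likelihood, TMM, filterByExpr) on counts, with Benjamini-Hochberg adjustment over all genes and a threshold of 0.05; DESeq2 1.42.0 was an alternative. The limma fit on ln fraction and the edgeR fit were tested on simulated data, and the pair test was not. The simulated noise was independent for each gene and library, so false calls from a library deviation that genes share were not covered. Pairs used exact permutation of the times, without weights. The genes, lists, pairs and naming rule (all 10 members, 21 pathway genes, and the 3 genes nearest to Mettl3 and Ythdc1) were chosen with earlier results of these data known. No label says that the cultures were independent, and their number limits the precision.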

Additional observations from a re-analysis of the deposited data

How the results depend on the processing

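No paired analysis was possible because a washout time is a single library, with none to pair. The count of members that fell stayed within 1.5 times under every alternative run on the share (7 with posterior weights to 10) and on the T>C rate (7 to 10, lowest without the 150 min library). With posterior weights 2949 genes fell in all, and 5 other pathway genes. Leaving out 1 library gave 3582 to 6335 genes that fell on the share and 6 to 13 other pathway genes; on the T>C rate it gave 2712 to 9236 genes and 5 to 20 pathway genes. For total reads, leaving out 1 library gave 0 to 1413 called genes, 0 to 3 members and 0 to 1 pathway genes. Without both the 30 and 60 min libraries edgeR called 559 genes, 2 members and 1 pathway gene, and with these times exchanged 2884, 4 and 3. DESeq2 called 605 genes and 1 member, and edgeR with no filter on low counts 399 and 1. The cause was not tested.

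With 5 libraries the smallest exact permutation p for a pair is larger, and all 4 pair differences that passed missed the threshold in 5 of 6 such runs while keeping their direction: -0.535 to -0.410 per h for Zc3h13 minus Wtap, 0.273 to 0.338 for Rbm15 minus Rbm15b, 0.371 to 0.560 for Cbll1 minus Mettl3 and 0.290 to 0.386 for Ythdf2 minus Ythdf3. Without both the 30 and 60 min libraries they were -0.504, 0.304, 0.386 and 0.328 per h and none passed; each stood at 0.0417, the smallest exact permutation p that 24 orderings allow, which passes after adjustment only if all 6 pairs reach it. Slopes near 0 that did not pass changed sign. For total reads these were Rbm15 (-0.023 to 0.031 log2 per h over runs without 1 library, 0.015 without both libraries, 0.014 with times exchanged, 0.0043 by DESeq2 and 0.0024 with its size factors in edgeR), Rbm15b (-0.0028 to 0.039, and -0.025 without both), Ythdc1 (-0.097 to 0.030, 0.0088 without both, 0.0064 exchanged) and Ythdf2 (-0.018 to 0.089). For the share they were Igf2bp2 (-0.060 to 0.081 per h over runs without 1 library, -0.025 with posterior weights) and Igf2bp3 (-0.037 to 0.035, -0.014 without both, -0.040 exchanged).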
